A study of Arabidopsis thaliana with 35 samples.

Results

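The 9 genes described here encode the protein disaggregases of the HSP101/ClpB class (*HSP101*, *CLPB3*, *CLPB4*), a protein that works beside them (*HSA32*), the mitochondrial chaperonin and its cap (*HSP60*, *HSP60-2*, *HSP60-3A*, *CPN10*) and the co-chaperone *BAG6*. They were picked by locus identifier from the 37898 genes of Arabidopsis thaliana measured by RNA-seq. The choice was made with earlier results of these data known, so it was not blind to their response. Each gene was followed through all 12 groups of the series. All 9 stood above the lowest value of their table in every library, so none was lost to the filter on low values.

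ClpB-type disaggregases pull single polypeptides out of protein aggregates with the energy of ATP and pass them on for refolding, in cooperation with HSP70. HSP101 is the form of the cytosol and nucleus and is required for acquired thermotolerance, CLPB3 is the chloroplast form and CLPB4 the mitochondrial one. HSA32 is a plant heat stress protein that keeps HSP101 from decaying after a heat treatment and so prolongs the memory of heat acclimation. Chaperonins of the HSP60 class form barrels in the mitochondrial matrix in which imported proteins fold, and CPN10 is the lid of that barrel. BAG6 is a BAG domain protein that binds calmodulin and is linked to stress tolerance and programmed cell death.

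Whole seedlings were grown for 12 days at 22 °C under days of equal light and dark and were then held for 1 h at 10 °C or 37 °C or left at 22 °C. At ZT1 (zeitgeber time, hours after lights on) the genotypes were *cca1lhy*, which lacks the morning clock regulators *CCA1* and *LHY* (alleles *cca1-1* and *lhy-20*), with 4 libraries per temperature, and wild-type Col-0 (WT), with 4 libraries at 22 °C and 37 °C and 3 at 10 °C. At ZT6 they were *prr7prr9*, which lacks the clock repressors *PRR7* and *PRR9* (alleles *prr7-3* and *prr9-1*), and WT, with 2 libraries per group. Both mutants are in the Col-0 background. The values are log2 CPM (read counts scaled to a common library total, then log2), on a scale set separately at each time, so levels at ZT1 and ZT6 are not compared and only responses within a time are. Depth worked out from the low values was about 1.10 to 10.6 M reads per library at ZT1 and 13.1 to 27.4 M at ZT6, so that low values rest on few reads at ZT1. The ranges of *CCA1*, *LHY* and *PRR7* in the mutant lay below those in WT at each temperature, as did that of *PRR9* at 10 °C and 37 °C but not at 22 °C. At ZT6 4 libraries had 27329 to 29244 genes above the lowest value and the rest no more than 26018. They were 1 library of WT at 37 °C and 1 of *prr7prr9* at each temperature, and the responses without these 4 are given where they changed a call.

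The genes lie apart from one another in the TAIR10.1 assembly. The disaggregase genes are *HSP101* (AT1G74310, chr1:27936508-27940369, minus strand, 6 exons), *CLPB3* (AT5G15450, chr5:5014212-5018347, minus strand, 9 exons) and *CLPB4* (AT2G25140, chr2:10697629-10702203, minus strand, 10 exons). *HSA32* (AT4G21320) covers chr4:11340362-11342075 on the plus strand with 5 exons. The chaperonin genes are *HSP60* (AT3G23990, chr3:8668772-8672578, plus strand, 16 exons), *HSP60-2* (AT2G33210, chr2:14074767-14078772, minus strand, 17 exons) and *HSP60-3A* (AT3G13860, chr3:4561517-4565335, minus strand, 17 exons), and *CPN10* (AT1G14980) covers chr1:5165489-5166939 on the minus strand with 3 exons. *BAG6* (AT2G46240) covers chr2:18986133-18990220 on the plus strand with 3 exons.

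Heat shock factors bind arrays of the unit GAA in alternating orientation, and the shortest pairs of such units, GAANNTTC and TTCNNGAA, were searched in the 250 bases before each gene. On either strand, 16.1% of the 27443 protein-coding promoters hold one of these pairs. Of the 9 genes, 4 hold one: *CLPB3*, *HSA32*, *HSP60-3A* and *BAG6*. *HSP101* holds one before the start of its shorter, inner transcript but not before the outer one, and *CLPB4*, *HSP60*, *HSP60-2* and *CPN10* hold none in this window. Neighbouring genes cover all 250 bases of the window of *CPN10*, 216 of *HSP60-3A* and 173 of *HSP60-2*. They cover 113 bases for *CLPB4*, 77 for *BAG6* and 26 for *HSP101*. The stretches with a match are shown with the matched pair in capitals and the rest in lower case. They are read 5′ to 3′ on the strand of the gene (RefSeq sequence of TAIR10.1). At 37 °C the 4 genes with a pair rose, as did *HSP101*, and *CLPB4*, *HSP60* and *CPN10*, which hold none. *HSP60-2*, which holds none either, did not rise. A link of these pairs to the response was not tested. Stretches that run into a neighbouring gene were shortened.
CLPB3, 250 bases before the gene, chr5:5018348-5018597, minus strand: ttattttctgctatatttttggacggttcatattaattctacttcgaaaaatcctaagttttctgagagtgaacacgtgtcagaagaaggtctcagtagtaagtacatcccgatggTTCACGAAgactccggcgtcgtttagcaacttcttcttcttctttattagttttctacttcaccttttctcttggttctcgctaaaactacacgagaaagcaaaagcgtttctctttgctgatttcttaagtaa
HSA32, 250 bases before the gene, chr4:11340112-11340361, plus strand: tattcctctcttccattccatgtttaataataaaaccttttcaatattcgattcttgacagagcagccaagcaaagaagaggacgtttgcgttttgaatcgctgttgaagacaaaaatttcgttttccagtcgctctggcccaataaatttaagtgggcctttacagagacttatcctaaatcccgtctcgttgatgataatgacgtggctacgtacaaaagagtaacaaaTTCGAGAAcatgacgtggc
BAG6, 173 bases before the gene, chr2:18985960-18986132, plus strand: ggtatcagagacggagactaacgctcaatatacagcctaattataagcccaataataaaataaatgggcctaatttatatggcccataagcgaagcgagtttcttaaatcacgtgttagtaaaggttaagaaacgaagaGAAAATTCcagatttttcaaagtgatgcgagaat
HSP60-3A, 30 bases before the gene, chr3:4565336-4565365, minus strand: gagtttttgggccattgGAAAATTCataat
HSP101, a stretch of 30 bases upstream of the inner transcript and inside the outer one, chr1:27940322-27940351, minus strand: ataaaataagcGAAAATTCcacgtgacatc

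The pair began 134 bases before *CLPB3*, 34 before *BAG6*, 19 before *HSA32*, 13 before *HSP60-3A* and 31 before the inner transcript of *HSP101*. The longer array, in which such a pair goes on with NN and one more unit of alternating orientation, occurs in 0.386% of promoters and in none of these 9. The G-box CACGTG, found in 6.49% of promoters, lies before *CLPB3* and *BAG6*, and also in the stretch shown for *HSP101*. The evening element AAAATATCT, found in 2.36% of promoters, lies before none of them. The *CCA1* binding site AAAAATCT, found in 6.69%, lies before *HSP60-2*, *CPN10* and *BAG6*. The matches of *HSP60-2* and *CPN10*, which start 105 and 85 bases before the gene, fall inside a neighbouring gene, and that of *BAG6* does not. These are matches of letters in a window and no binding was measured.

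At 37 °C 8 of the 9 transcripts rose in WT at ZT1 and none fell (limma: an adjusted p below 0.05 together with a log2 fold change, LFC, beyond 1 in size). Over all 25727 genes tested at ZT1, 6.97% rose and 6.3% fell. The median LFC of the 9 genes was 3.52, against -0.06 over all genes tested. The same count, 8 up and 0 down, was reached in *cca1lhy* at ZT1, in *prr7prr9* at ZT6 and in WT at ZT6, where 6.44%, 6.66% and 7.25% of all genes rose and 6.28%, 7.45% and 7.16% fell. The gene that did not pass in any of the 4 comparisons was *HSP60-2*. Among all genes ordered by the LFC of WT at ZT1, *BAG6* stood at place 18, *HSP101* at 24, *HSA32* at 28, *CLPB4* at 71, *CLPB3* at 143, *HSP60* at 222, *CPN10* at 349, *HSP60-3A* at 892 and *HSP60-2* at 20975.

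**Figure D1:**
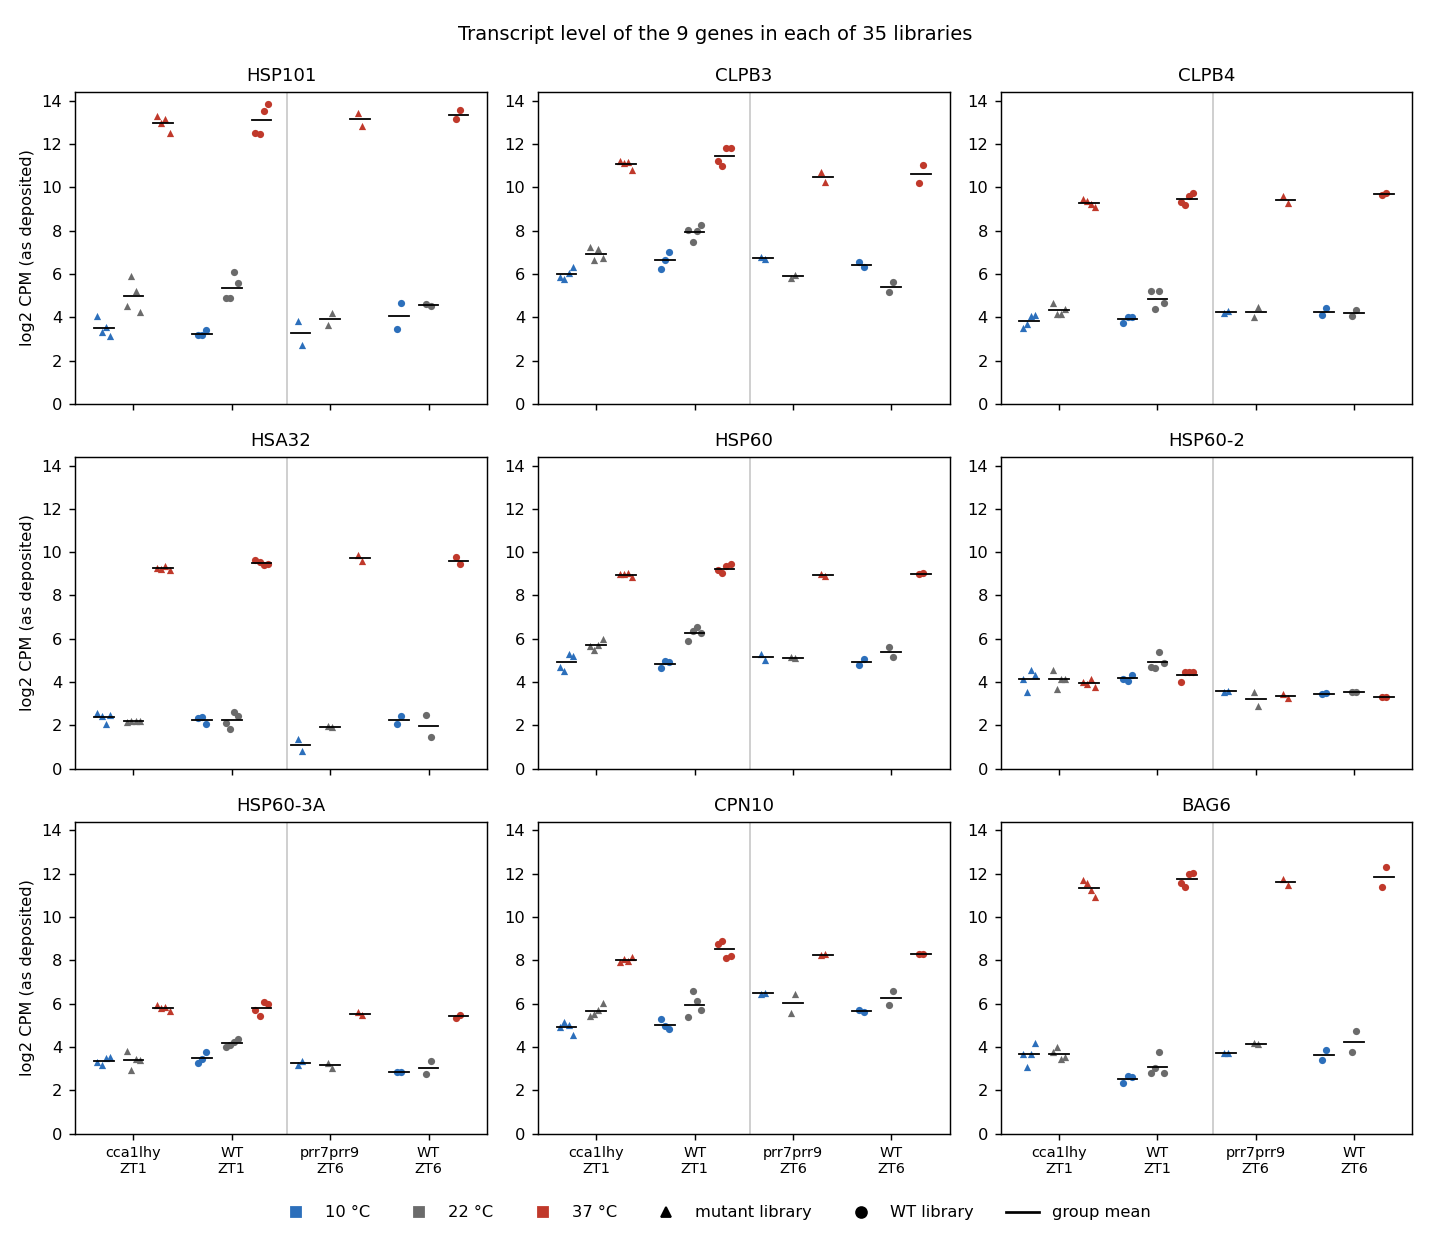
Log2 CPM of the 9 genes in each of the 35 libraries, 1 panel per gene, with groups along the horizontal axis (mutant left of WT, 10, 22 and 37 °C in order) and a black line at the group mean. All libraries at 37 °C stand above all libraries at 22 °C of the same genotype and time for 8 genes, and *HSP60-2* is the exception. The share of all genes that separate in this way was not worked out.

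*HSP101* reached 12.53, 12.49, 13.53 and 13.85 log2 CPM in WT at 37 °C at ZT1, against 4.89, 4.89, 6.09 and 5.59 in WT at 22 °C. The lowest library at 37 °C was more than 6 log2 units above the highest at 22 °C. The LFC was 7.73 ± 0.33 (SE, n = 4 against 4, limma adjusted p = 3.51e-15), which is 213-fold. At ZT6 the libraries had 13.16 and 13.55 log2 CPM in WT at 37 °C, against 4.59 and 4.50 in WT at 22 °C, an LFC of 8.81 ± 0.44 (limma adjusted p = 2.38e-06). The mutants gave LFCs of 8.02 ± 0.33 in *cca1lhy* and 9.20 ± 0.44 in *prr7prr9*. At 37 °C *HSP101* had the highest level per kilobase of exon of the 9 genes in each of the 4 groups.

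*CLPB3*, needed for chloroplast development as well as for heat tolerance, had the highest level per kilobase of exon of the 9 genes in WT at 22 °C at ZT1. At ZT1 it had 11.20, 10.99, 11.81 and 11.81 log2 CPM in WT at 37 °C, against 8.02, 7.47, 7.99 and 8.25 in WT at 22 °C, with no overlap. The LFC was 3.52 ± 0.21 (limma adjusted p = 1.76e-12, 11.4-fold). At ZT6 it had 10.20 and 11.03 log2 CPM in WT at 37 °C, against 5.17 and 5.65 in WT at 22 °C, an LFC of 5.21 ± 0.29 (limma adjusted p = 3.98e-06, 36.9-fold). *CLPB3* also rose in *cca1lhy* at ZT1 (4.14 ± 0.21) and in *prr7prr9* at ZT6 (4.59 ± 0.29).

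*CLPB4*, the mitochondrial disaggregase, rose in all 4 comparisons. It had 9.32, 9.17, 9.59 and 9.76 log2 CPM in WT at 37 °C at ZT1, against 5.19, 4.38, 5.22 and 4.65 in WT at 22 °C. Its LFC of 4.60 ± 0.18 (limma adjusted p = 7.67e-16, 24.3-fold) lay between those of *HSP101* and *CLPB3*. At ZT6 the values were 9.64 and 9.75 log2 CPM in WT at 37 °C, against 4.03 and 4.32 in WT at 22 °C, an LFC of 5.52 ± 0.20 (limma adjusted p = 7e-07). The LFC was 4.95 ± 0.18 in *cca1lhy* and 5.18 ± 0.20 in *prr7prr9*.

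*HSA32* was close to the floor at 22 °C and among the strongest risers. At ZT1 it had 9.64, 9.56, 9.39 and 9.48 log2 CPM in WT at 37 °C, against 2.13, 1.84, 2.61 and 2.46 in WT at 22 °C. The libraries at 22 °C held only 8, 1, 4 and 6 reads of *HSA32*, and the 5 reads that the authors added to each count raise these values. The LFC was 7.26 ± 0.15 (limma adjusted p = 6.25e-21), and 8.30 when reads worked out from the values were scaled to their total with an offset of 0.5 in place of the larger one. At ZT6, where 91 and 52 reads stood behind the values at 22 °C, *HSA32* had 9.79 and 9.43 log2 CPM in WT at 37 °C, against 2.47 and 1.44 in WT at 22 °C, an LFC of 7.65 ± 0.32 (limma adjusted p = 1e-06). The LFC was 7.08 ± 0.15 in *cca1lhy* and 7.78 ± 0.32 in *prr7prr9*.

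*BAG6* showed the largest LFC of the 9 genes in WT at ZT1. It had 11.58, 11.41, 11.99 and 12.04 log2 CPM in WT at 37 °C, against 2.79, 3.03, 3.76 and 2.79 in WT at 22 °C, where 19, 6, 13 and 9 reads were counted. The LFC was 8.66 ± 0.23 (limma adjusted p = 3.45e-19, 405-fold), or 9.18 with the offset of 0.5. At ZT6 it had 11.37 and 12.29 log2 CPM in WT at 37 °C, against 3.76 and 4.72 in WT at 22 °C, an LFC of 7.59 ± 0.35 (limma adjusted p = 1.42e-06, 193-fold). The LFC was 7.66 ± 0.23 in *cca1lhy* and 7.48 ± 0.35 in *prr7prr9*.

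The mitochondrial chaperonin genes moved unequally. *HSP60* had 9.16, 9.05, 9.34 and 9.43 log2 CPM in WT at 37 °C at ZT1, against 5.91, 6.36, 6.55 and 6.26 in WT at 22 °C, an LFC of 2.98 ± 0.16 (limma adjusted p = 3.41e-13, 7.88-fold). At ZT6 it had 8.996 and 9.03 log2 CPM in WT at 37 °C, against 5.64 and 5.17 in WT at 22 °C, an LFC of 3.61 ± 0.17 (limma adjusted p = 1.93e-06). *HSP60* thus separated completely by temperature at both times. *HSP60-3A* ranged over 5.42 to 6.07 log2 CPM in WT at 37 °C and 4.00 to 4.35 in WT at 22 °C at ZT1, and its LFC was 1.63 ± 0.18 (limma adjusted p = 1.07e-07, 3.09-fold). At ZT6 the LFC of *HSP60-3A* was 2.36 ± 0.21 (limma adjusted p = 6.39e-05), and without the 4 libraries named above the adjusted p was 0.067 at an LFC of 2.41.

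*HSP60-2* did not rise at 37 °C. At ZT1 it had 4.00, 4.45, 4.45 and 4.44 log2 CPM in WT at 37 °C, against 4.72, 4.66, 5.37 and 4.89 in WT at 22 °C. All 4 libraries at 37 °C were below all 4 at 22 °C, the LFC was -0.57 ± 0.21 (limma adjusted p = 0.0383) and the 95% interval of -1.002 to -0.139 reached just past the LFC threshold. These values rest on 17, 27, 21 and 22 reads at 37 °C and on 98, 25, 46 and 56 reads at 22 °C. Over all alternatives of processing the LFC ranged from -0.93 to -0.42, and a fall was called only with no LFC threshold. The LFC was -0.17 ± 0.21 in *cca1lhy* (limma adjusted p = 0.6), 0.13 ± 0.21 in *prr7prr9* at ZT6 (0.735) and -0.22 ± 0.21 in WT at ZT6 (0.52).

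*CPN10*, the co-chaperonin, ranged over 8.12 to 8.91 log2 CPM in WT at 37 °C and 5.39 to 6.59 in WT at 22 °C at ZT1. Its LFC was 2.55 ± 0.21 (limma adjusted p = 1.1e-09, 5.84-fold). At ZT6 it ranged over 8.28 to 8.31 in WT at 37 °C and 5.93 to 6.57 in WT at 22 °C, an LFC of 2.05 ± 0.28 (limma adjusted p = 8.53e-04), and without the 4 libraries the adjusted p was 0.0851 at an LFC of 2.03. In *prr7prr9* the calls of *CPN10* (LFC 2.65, adjusted p = 0.0856) and *HSP60-3A* (LFC 2.32, adjusted p = 0.102) were lost without them as well, with the LFC at 2.24 and 2.38 over all libraries.

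**Figure D2:**
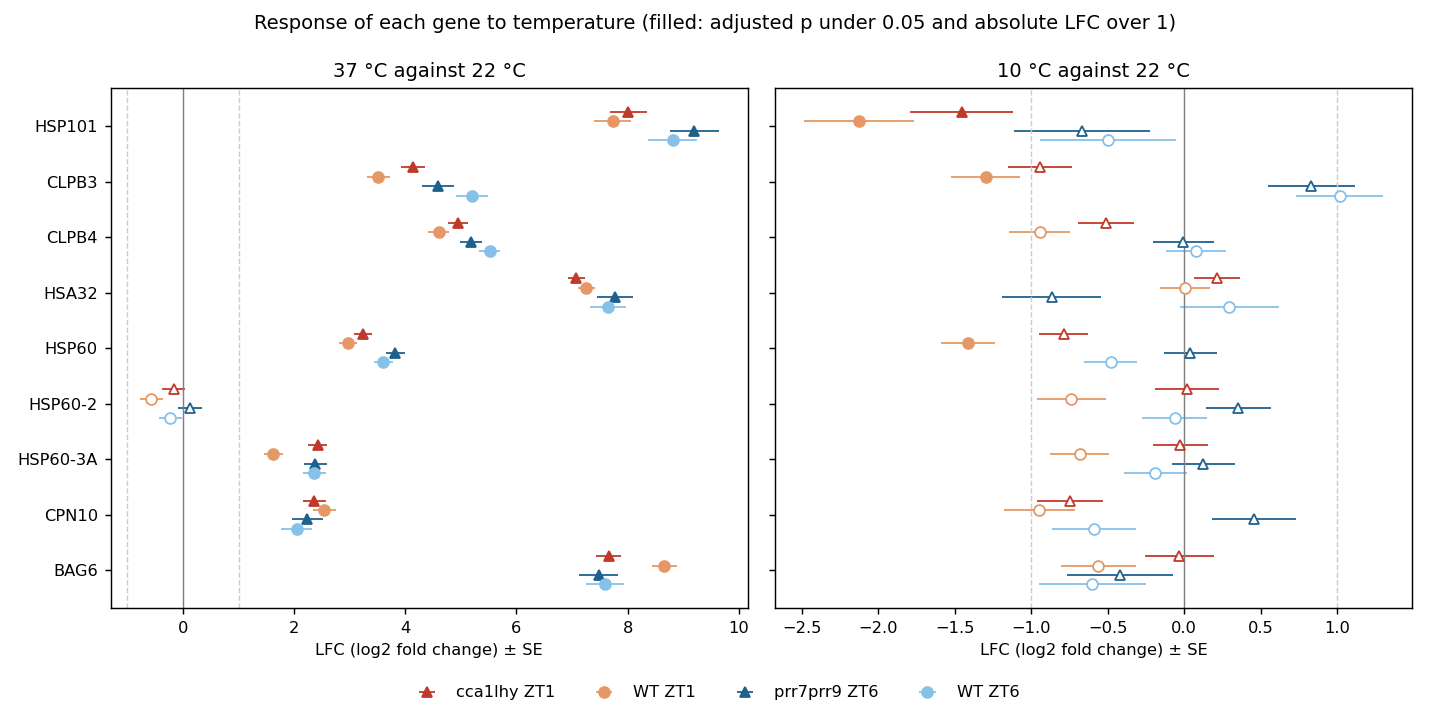
LFC ± SE of each gene at 37 °C and at 10 °C against 22 °C in the 4 pairs of genotype and time, with filled points where the change passed both thresholds (adjusted p of 0.05, LFC of 1 in size). At 37 °C 8 genes lie between 1.63 and 9.20 and *HSP60-2* lies between -0.57 and 0.13. At 10 °C the filled points are those of *HSP101* in both genotypes at ZT1 and of *CLPB3* and *HSP60* in WT at ZT1.

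The unequal responses shifted the shares of the 3 *HSP60* genes. Per kilobase of exon, *HSP60* made up 87.3 to 88.8% of the summed CPM of the 3 genes in WT at 37 °C at ZT1, against 58.0 to 65.3% in WT at 22 °C. *HSP60-2* made up 2.47 to 3.64% in WT at 37 °C, against 19.9 to 26.6% in WT at 22 °C. At ZT6 *HSP60-2* held 1.70 to 1.74% in WT at 37 °C, against 16.7 to 19.8% in WT at 22 °C. The shares of *HSP60-2* did not overlap between 37 °C and 22 °C in *cca1lhy* (2.56 to 2.94% against 18.9 to 26.2%) or in *prr7prr9* (1.75 to 1.92% against 14.5 to 20.4%). The shares were not tested, and the reads added to each count raise the share of the lower genes.

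**Figure D3:**
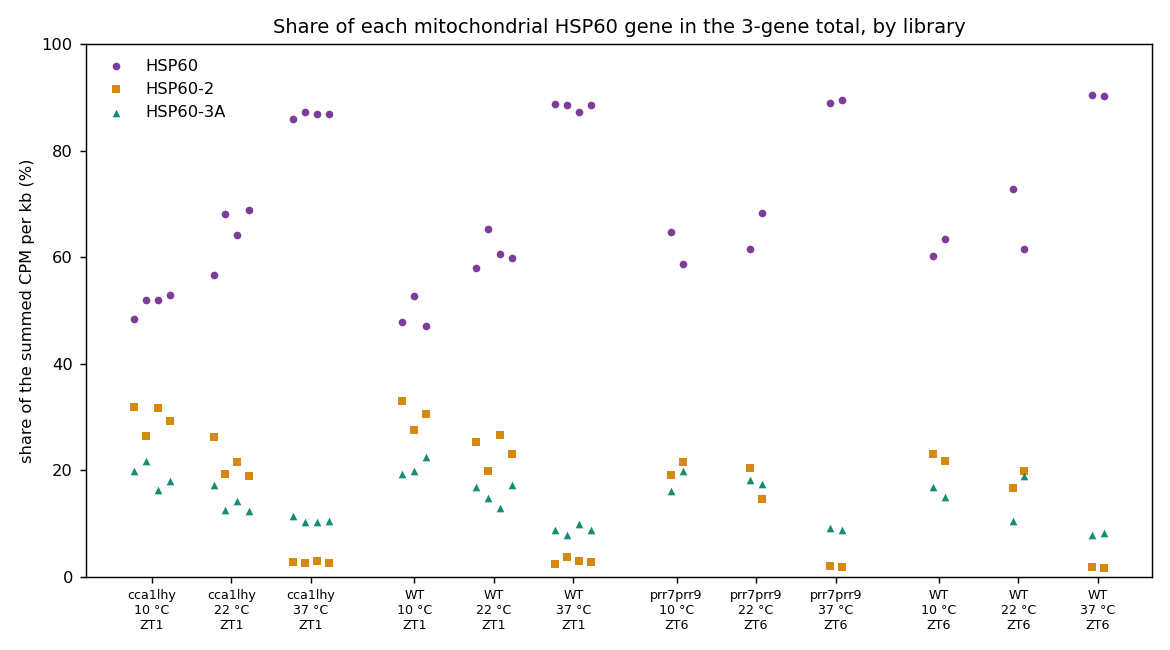
Share of each *HSP60* gene in the summed CPM per kilobase of the 3 genes, in percent, for each library, with groups in the order mutant, WT and 10, 22, 37 °C. *HSP60* holds 85.9 to 90.4% in every library at 37 °C and *HSP60-2* no more than 3.64%.

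Per kilobase of exon, the order of the 9 genes at 37 °C differed from that at 22 °C. In WT at 37 °C at ZT1 *HSP101* was highest with 11.35 ± 0.69 log2 CPM per kilobase (SD, n = 4), followed by *BAG6* with 9.83 ± 0.31, *CLPB3* with 9.78 ± 0.42 and *HSA32* with 9.10 ± 0.11. *BAG6* and *CLPB3* differed by less than their spread. *CPN10* with 8.14 ± 0.40, *HSP60* with 8.06 ± 0.17 and *CLPB4* with 7.72 ± 0.26 came next, with *CPN10* and *HSP60* closer to each other than their spread, and *HSP60-3A* with 4.72 ± 0.29 and *HSP60-2* with 3.14 ± 0.22 were last. In WT at 22 °C the order began with *CLPB3* at 6.26 ± 0.33, *CPN10* at 5.60 ± 0.52 and *HSP60* at 5.08 ± 0.27 log2 CPM per kilobase. *HSP60-2* at 3.71 ± 0.32 and *HSP101* at 3.62 ± 0.58 differed by less than their spread, as did *CLPB4* at 3.12 ± 0.41 and *HSP60-3A* at 3.09 ± 0.15, and *HSA32* at 1.84 ± 0.34 and *BAG6* at 1.17 ± 0.46 were lowest. At ZT6 *HSP101* (11.61 ± 0.28 log2 CPM per kilobase, n = 2) and *BAG6* (9.91 ± 0.65) again led in WT at 37 °C and *HSP60-2* (2.11) was again last.

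**Figure D4:**
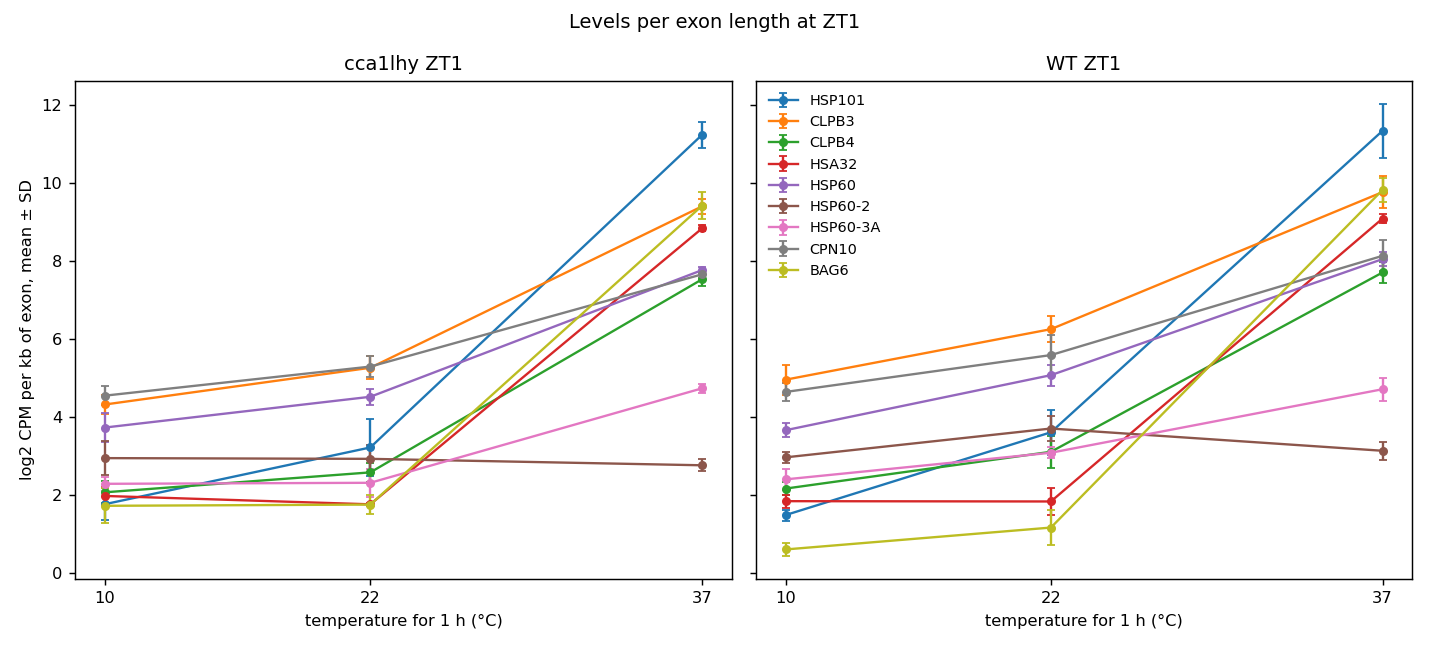
Mean ± SD of log2 CPM per kilobase of exon at ZT1 for the 9 genes in *cca1lhy* and in WT, at 10, 22 and 37 °C (n = 4 per group, 3 for WT at 10 °C). In WT *HSP101* stands at 11.35 at 37 °C and 3.62 at 22 °C, and *HSP60-2* at 3.14 and 3.71.

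At 10 °C against 22 °C, changes of the 9 genes were called only at ZT1, and all of them were downward. In WT at ZT1 *HSP101*, *CLPB3* and *HSP60* fell and no gene of the 9 rose, where 0.84% of all genes fell and 1.03% rose. *HSP101* had 3.17, 3.16 and 3.40 log2 CPM in WT at 10 °C, all below the 4.89 to 6.09 of WT at 22 °C, an LFC of -2.12 ± 0.36 (limma adjusted p = 5.03e-04). *CLPB3* had 6.25, 6.64 and 7.03 log2 CPM in WT at 10 °C, below the 7.47 to 8.25 of WT at 22 °C, an LFC of -1.30 ± 0.23 (limma adjusted p = 6.54e-04). *HSP60* had 4.66, 4.98 and 4.94 log2 CPM in WT at 10 °C, below the 5.91 to 6.55 of WT at 22 °C, an LFC of -1.41 ± 0.18 (limma adjusted p = 9.92e-06). A group of 3 more genes passed the adjusted p but stayed within the LFC threshold, *CLPB4* at -0.94 (limma adjusted p = 0.00486), *CPN10* at -0.95 (0.0163) and *HSP60-3A* at -0.68 (0.0445). *HSA32* had an LFC of 0.01, *BAG6* of -0.56 (adjusted p = 0.285) and *HSP60-2* of -0.74 (adjusted p = 0.0677).

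The calls of *HSP101*, *CLPB3* and *HSP60* in the cold at ZT1 held without any single library. *CLPB4* joined them without replicate 4 of WT at 10 °C or replicates 2 or 4 of WT at 22 °C, with an LFC of -1.10 at the lowest, and *CPN10* joined without replicate 2 of WT at 10 °C or replicates 1 or 4 of WT at 22 °C, with an LFC of -1.13 at the lowest. In *cca1lhy* at ZT1 *HSP101* fell (LFC -1.45 ± 0.33, limma adjusted p = 0.0075), where 1.16% of all genes fell and 0.983% rose. *HSP101* had 3.14 to 4.08 log2 CPM in *cca1lhy* at 10 °C and 4.26 to 5.92 in *cca1lhy* at 22 °C. *CLPB3* (-0.94, adjusted p = 0.00544), *HSP60* (-0.79, 0.00272) and *CPN10* (-0.75, 0.0374) stayed within the LFC threshold.

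At ZT6 none of the 9 genes was called in the cold by limma in either genotype. In WT 3.94% of all genes rose and 2% fell, and in *prr7prr9* 2.19% rose and 1.42% fell. In each genotype 2 of the 9 genes had an unadjusted p under 0.05 by limma. Here and below the shares of all genes are shares of calls, and the share at an unadjusted p under 0.05 was not worked out. *CLPB3* lay closest to a call. It had 6.54 and 6.31 log2 CPM in WT at 10 °C, above the 5.17 and 5.65 of WT at 22 °C, an LFC of 1.02 ± 0.29 (limma adjusted p = 0.0573). *CLPB3* in *prr7prr9* had 6.77 and 6.67 log2 CPM at 10 °C, also above the 5.80 and 5.97 at 22 °C, an LFC of 0.83 (limma adjusted p = 0.153). *HSP101* had 3.45 and 4.64 log2 CPM in WT at 10 °C, and the higher of these lay above both libraries at 22 °C (LFC -0.50, adjusted p = 0.6). Without either replicate of WT at 37 °C, which enter the shared estimate of the spread, *CLPB3* was called in WT (adjusted p = 0.0283 and 0.0299).

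The question of time of day was asked by subtracting the LFC at ZT1 from the LFC at ZT6 in WT, gene by gene. For 37 °C against 22 °C the difference was called (adjusted p under 0.05, limma estimates) for 2 of the 9 genes, where 5.23% of the 25631 genes tested at both times had a higher LFC at ZT6 and 4.21% a lower one. *CLPB3* differed by 1.69 ± 0.35 (SE, adjusted p = 0.00515) and *CLPB4* by 0.92 ± 0.27 (adjusted p = 0.0324). *HSP101* had a difference of 1.08 ± 0.56 (adjusted p = 0.241), *HSP60-3A* of 0.73 ± 0.27 (0.0921), *HSP60* of 0.63 ± 0.24 (0.0943) and *HSA32* of 0.39 ± 0.36 (0.546). *BAG6*, with -1.07 ± 0.42 (adjusted p = 0.118), and *CPN10*, with -0.50 ± 0.35 (adjusted p = 0.402), pointed the other way and were not called.

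For 10 °C against 22 °C the difference was called for 3 of the 9 genes, where 5.77% of all genes had a higher LFC at ZT6 and 5.13% a lower one. *CLPB3* differed by 2.31 ± 0.36 (adjusted p = 1.45e-04), *CLPB4* by 1.02 ± 0.28 (0.016) and *HSP60* by 0.93 ± 0.25 (0.0125). *CLPB3* is the gene whose libraries at 10 °C lay below those at 22 °C at ZT1 and above them at ZT6. *HSP101* had a difference of 1.62 ± 0.57 (adjusted p = 0.0733), which was called when reads were scaled to their total, at 1.79 with the offset of 5.5 (0.0106) and 1.90 with that of 0.5 (0.0149). The differences at 37 °C and at 10 °C share the libraries at 22 °C, so they are not separate evidence. Time of day and sequencing run cannot be told apart, because the labels give 1 flowcell for all ZT1 libraries and another for all ZT6 libraries.

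Of these differences, that of *CLPB3* was called at both temperatures without any single library, between 1.27 and 2.104 at 37 °C and between 2.07 and 2.55 at 10 °C over all alternatives. The call of *CLPB4* at 37 °C depended on single libraries, while its difference stayed between 0.76 and 1.08 over all alternatives. The call was lost without replicates 1 or 3 of WT at 22 °C at ZT1, replicates 1 or 2 of WT at 37 °C at ZT1, replicate 2 of WT at 22 °C at ZT6 or either replicate of WT at 37 °C at ZT6 (adjusted p = 0.0538 to 0.143), and without the 4 ZT6 libraries (0.11). At 10 °C the difference of *CLPB4* lost its call without replicate 2 of WT at 10 °C at ZT1, replicate 2 of WT at 10 °C at ZT6 or replicate 2 of WT at 22 °C at ZT6 (0.86 to 0.92, adjusted p = 0.0506 to 0.0841), and that of *HSP60* without replicate 2 of WT at 10 °C at ZT6 (0.81, adjusted p = 0.0667) or replicate 3 of WT at 22 °C at ZT6 (0.70, 0.0718), and without the 4 ZT6 libraries (0.93, 0.0992). Without a single library *HSP60* gained a call at 37 °C (replicate 1 of WT at 22 °C at ZT1 or replicate 2 of WT at 22 °C at ZT6, 0.0496 and 0.0309), *HSP60-3A* as well (replicate 3 of WT at 22 °C at ZT6, 0.0128), *BAG6* as well (replicate 2 of WT at 22 °C at ZT6, LFC difference -1.54, 0.0409) and *HSP101* at 10 °C (replicate 1 of WT at 10 °C at ZT6, LFC difference 2.22, 0.0221).

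**Figure D5:**
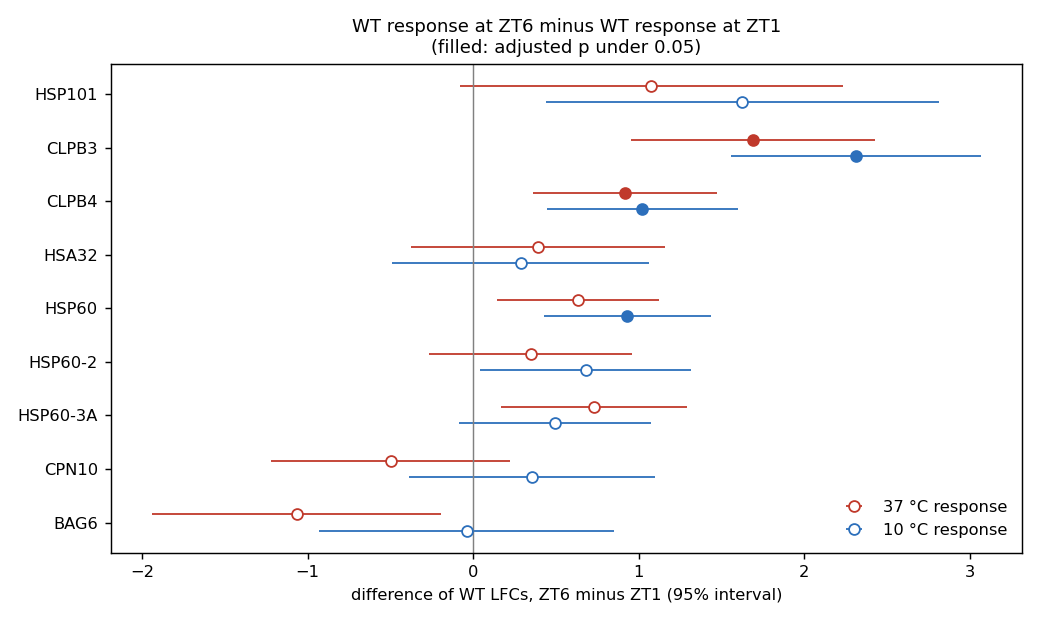
LFC at ZT6 minus LFC at ZT1 in WT for each gene at 37 °C and at 10 °C, with 95% intervals and filled points where adjusted p was under 0.05. *CLPB3* lies at 1.69 and 2.31 and *CLPB4* at 0.92 and 1.02, and *BAG6* at 37 °C lies at -1.07 with an open point.

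No call separated the clock mutants from WT in the heat response of these genes. None of the 9 genes differed between *cca1lhy* and WT at 37 °C by limma (1 at an unadjusted p under 0.05), where 1.31% of all genes were higher and 0.824% lower in *cca1lhy*. Their LFCs at 37 °C lay between -0.48 (*CPN10*) and 0.02 (*HSP60-3A*). None had a different response to 37 °C in *cca1lhy* than in WT (limma interaction, 3 at an unadjusted p under 0.05, 0.913% of all genes called). *HSP60-3A* had the largest positive interaction, 0.79 ± 0.25 (adjusted p = 0.152), and *BAG6* the largest negative one, -0.998 ± 0.32 (adjusted p = 0.157). For the response to 10 °C none of the 9 interactions was called (3 at an unadjusted p under 0.05, 0.0117% of all genes called).

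At 22 °C none of the 9 genes passed both thresholds between *cca1lhy* and WT (limma, 6 at an unadjusted p under 0.05), where 1.33% of all genes were higher and 0.385% lower in *cca1lhy*. *CLPB3* lay at the edge of the threshold, with 7.25, 6.64, 7.15 and 6.74 log2 CPM in *cca1lhy*, all below the 7.47 to 8.25 of WT. Its LFC was -0.99 ± 0.21 (limma adjusted p = 0.00484), and it was called, at -1.06 to -1.14, without replicate 2 of WT or replicates 1 or 3 of *cca1lhy*. *HSP60-2* (-0.78 ± 0.21, adjusted p = 0.0312) and *HSP60-3A* (-0.77 ± 0.18, adjusted p = 0.0109) passed the adjusted p alone. *HSP60-2* had 3.69 to 4.54 log2 CPM in *cca1lhy* and 4.66 to 5.37 in WT, with no overlap, and *HSP60-3A* had 2.94 to 3.81 in *cca1lhy* and 4.00 to 4.35 in WT, with no overlap.

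At 10 °C *BAG6* was higher in *cca1lhy* than in WT, where 1.12% of all genes were higher and 0.455% lower. It had 3.65, 3.09, 3.69 and 4.18 log2 CPM in *cca1lhy* and 2.33, 2.64 and 2.63 in WT, where 5, 29 and 41 reads were counted. The groups did not overlap and the LFC was 1.12 ± 0.25 (limma adjusted p = 0.00837). The call was lost without replicate 2 of WT (LFC 1.02, adjusted p = 0.0712) and without replicate 4 of *cca1lhy* (LFC 0.94, adjusted p = 0.043). Between *prr7prr9* and WT at ZT6 none of the 9 genes was called at 37 °C, 22 °C or 10 °C (limma, 0, 0 and 2 at an unadjusted p under 0.05), where 0.145%, 0.286% and 0.141% of all genes differed. None of their interactions was called at 37 °C or 10 °C (0 and 2 at an unadjusted p under 0.05, 0.00321% and 0.0835% of all genes called). The study's methods name 4 biological replicates at ZT1 and 2 replicates at ZT6, and do not say whether either were separate cultures. At each time p reflects the spread among the libraries. With 2 libraries per group at ZT6 this spread may be technical.

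Related chaperone genes gave the setting in which the 9 genes moved. Of the 6 chloroplast chaperonin subunits (CPN60), 3 rose in WT at 37 °C at each time and none fell. *Cpn60beta2* rose most, with an LFC of 4.07 ± 0.23 at ZT1 and 4.12 ± 0.17 at ZT6, and *CPN60A* rose by 1.80 and 2.06. Of the 4 organelle HSP70 partners, 2 rose at ZT1 and 3 at ZT6, led by *MTHSC70-2*, a mitochondrial HSP70, with 4.23 ± 0.18 and 5.11 ± 0.26. *CLPB4*, the disaggregase of the same organelle, had LFCs of 4.60 and 5.52. Of the 6 other BAG genes, *BAG5*, a mitochondrial member of the family, rose at both times (2.59 ± 0.20 at ZT1, 3.90 ± 0.26 at ZT6), *BAG2* rose at ZT6 (1.55 ± 0.31), *BAG1* fell at ZT1 (-1.24 ± 0.17) and *BAG7* fell at ZT6 (-1.25 ± 0.26).

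No subunit of the cytosolic chaperonin CCT was called at 37 °C in WT (0 of 9 by limma at each time, 5 at ZT1 and 3 at ZT6 at an unadjusted p under 0.05), and their LFCs lay between -0.98 and 0.31 at ZT1. None of the 6 other Clp/HSP100 genes tested was called (2 at an unadjusted p under 0.05 at each time), with LFCs of -0.66 to 0.64 at ZT1 and -0.59 to 0.71 at ZT6. None of the 4 other co-chaperonins was called in WT either (2 at each time). Their LFCs were 0.28 to 0.95 at ZT1 and -1.02 to 0.63 at ZT6, against 2.55 and 2.05 for *CPN10*. In *cca1lhy* at 37 °C 1 of these co-chaperonins and 1 of the Clp/HSP100 genes rose, and 2 CCT subunits fell. In *prr7prr9* at 37 °C 1 co-chaperonin rose, and no Clp/HSP100 gene or CCT subunit was called. In the cold at ZT1 *Cpn60beta2* (-1.501 ± 0.25) and the chloroplast HSP70 gene *cpHsc70-2* (-1.44 ± 0.20) fell in WT.

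Over the 35 libraries the log2 CPM of the 8 genes that rose correlated with one another with r between 0.92 (*CPN10* with *HSA32*) and 0.99 (*HSP101* with *CLPB4*). *HSP60-2* correlated with the other 8 with r between -0.23 and -0.04. Of all 25631 genes measured above the floor at both times, those most like *HSP101* in Pearson's r were *HSP90.1* (0.997), *Hop3* (0.997) and AT1G59860 (0.996). The first gene for *CLPB3* was *MTHSC70-2* (0.988), for *CLPB4* and for *HSP60-3A* *ROF1* (0.995 and 0.981), for *HSA32* AT5G47830 (0.995), for *HSP60* *Hsp89.1* (0.991), for *CPN10* *RANBP1* (0.977) and for *BAG6* AT5G10695 (0.994). *HSP60-2* had no close partner, its highest r being 0.745 with *TOC75-III*. These are descriptions, since the libraries share temperatures and the 2 times share neither run nor scale.

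Reads of neighbours and of near copies bear on a few values, and whether counting used the strand is not given in the sources used here. The exons of AT1G74300 on the opposite strand share 101 bases with *HSP101*, and AT1G74300 rose in WT at 37 °C by an LFC of 4.37 ± 0.14 at ZT1 and 7.75 ± 0.22 at ZT6. *EDL1* (AT5G15440), opposite *CLPB3* with 70 shared bases, rose by 2.86 ± 0.21 and 3.04 ± 0.18. AT4G21323, on the same strand as *HSA32* with 113 shared bases, rose by 3.76 ± 0.25 and 4.96 ± 0.45. AT1G14990 shares 27 bases with *CPN10* and had LFCs of -0.12 and -0.45. How far shared reads set these values was not tested. Outside each gene's own span, no stretch of the nuclear chromosomes matched a member at 95% identity over 75 or more bases, the read length. The closest was AT4G01435, which matches *HSP101* at 86.9% over 579 bases. The overlaps given above lie inside these spans and were left out of this search. *HSP60* and *HSP60-2* matched at 73.1% over 657 bases.

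The seedlings were whole, and all 6 marker genes of leaf and root were above the lowest value in every library. The 3 leaf markers summed to 12.9 to 13.1 log2 CPM in WT at 37 °C at ZT1, against 14.95 to 14.997 in WT at 22 °C, and the 3 root markers to 9.10 to 9.45 in WT at 37 °C, against 10.75 to 11.8 in WT at 22 °C. At ZT6 the leaf markers summed to 12.5 to 12.6 in WT at 37 °C, against 13.7 to 14.3 in WT at 22 °C, and the root markers to 8.97 to 9.21 in WT at 37 °C, against 11.2 to 11.3 in WT at 22 °C. The ranges at 37 °C and 22 °C did not overlap for either sum at either time, and their part in the rise of the 8 genes was not tested. CPM was summed before taking log2, so the root sum mainly reflects *PYK10*. This marker had 8.30 to 12.2 log2 CPM at ZT1 and 8.64 to 12.3 at ZT6. The other root markers reached no more than 7.91 and 6.19. At 10 °C at ZT1 the leaf sum was 14.8 in WT, a little below that at 22 °C, and the root sum overlapped it with 11.1 to 12.2. In bulk seedlings, fewer cells of a type and less RNA per cell cannot be told apart.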

How the data were processed

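RNA-seq libraries of whole seedlings (35 libraries, single-end reads of 75 bases) were analysed. The deposited values are log2 CPM: per the study's methods the authors trimmed reads (cutadapt), aligned them (TopHat2, version 2.0.14, which called Bowtie2, version 2.2.5) to TAIR10, took exon counts per Araport11 gene, added 5 to each count, scaled with edgeR and quantile normalized with voom. In the files the libraries of a time share their lowest and highest value, which differ between the times, so each time was taken as normalized separately. Group means, fold changes and FDR columns of the authors were not used. A count test had been planned should the files hold counts. They hold log2 CPM, so a trended limma fit (version 3.58.1, R version 4.3.3) was made over the 6 groups of each time. A gene was tested if 3 (ZT1) or 2 (ZT6) or more libraries exceeded the lowest value, p was adjusted by Benjamini-Hochberg over all genes tested, and a call needed an adjusted p below 0.05 with an LFC beyond 1 in size. Interactions and differences between times (Satterthwaite degrees of freedom) needed adjusted p under 0.05 alone. ZT6 columns carry replicate numbers other than those of the sample titles and were assigned to groups only, and the numbers printed are those of the columns. Reads per gene and depth were recovered from the spacing of low values and are approximate as totals. Promoters and exons came from the RefSeq annotation of TAIR10.1, and near copies were searched with BLAST 2.17.0 (word size 28, at least 75 bases). The fits were tested on simulated data. Python 3.11.15 with pandas 2.3.3, numpy 2.4.6, scipy 1.17.1 and matplotlib 3.10.9 made the tables and plots.

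All 9 genes are named with their values, and of each list of related genes up to 4 called at 37 °C in WT with the largest LFC. Likeness named the 3 genes of highest r per member, of which the first is given for most. The genes, lists and tests were chosen with earlier results of these data known. The alternatives were no trend, no filter, no LFC threshold, the groups compared alone, reads scaled to their total with an offset of 5.5 or 0.5, a replicate block, leaving out each library and, chosen after seeing the data, leaving out 4 ZT6 libraries.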

Additional observations from a re-analysis of the deposited data

Results flagged for a closer look

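*CLPB3*, the chloroplast disaggregase, had an LFC in WT that was 1.69 higher at ZT6 than at ZT1 for 37 °C and 2.31 higher for 10 °C, and the difference passed its test at both temperatures. *CLPB4*, the mitochondrial disaggregase, had LFCs higher by 0.92 at 37 °C and 1.02 at 10 °C, both past the test. *HSP60* had an LFC higher by 0.93 at 10 °C. The calls of *CLPB4* and *HSP60* were lost without some single libraries and with the groups compared alone. Time of day cannot be told apart from sequencing run.

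*HSP60-2* had 4.00 log2 CPM in replicate 1 of WT at 37 °C at ZT1, apart from the other 3 libraries at 4.44 to 4.45. This was the only library to stand apart among the 45 groups of 4 values examined, where chance sets apart about 5%.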

How the results depend on the processing

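The 57 values of the 9 genes that were called under at least 1 setting kept their direction in all 1657 pairs of value and alternative, of which 1596 stayed on the same side of the threshold, 25 lost the call and 36 gained it. Values never called could change sign, as that of *HSP101* for WT at 10 °C at ZT6 (-1.09 to 0.09). The 8 genes called at 37 °C stayed 8 when any single library was left out, in each genotype and time. Leaving out single libraries gave 3 to 5 genes called for WT at 10 °C at ZT1, 1 to 2 for *cca1lhy* at 10 °C, 0 to 1 for *cca1lhy* against WT at 22 °C and at 10 °C, 0 to 1 for WT at 10 °C at ZT6, 1 to 3 for the difference between times at 37 °C and 1 to 4 at 10 °C. With no LFC threshold, 6 genes were called for WT at 10 °C at ZT1, 4 for *cca1lhy* at 10 °C and 3 for *cca1lhy* against WT at 22 °C. This setting also called *HSP60-2* as lower for WT at 37 °C at ZT1. Reads scaled to their total called 1 gene, *CLPB3*, for *cca1lhy* against WT at 22 °C with either offset, and 1, again *CLPB3*, for WT at 10 °C at ZT6 with the offset of 0.5. The same scaling called *CLPB4* for WT at 10 °C at ZT1 (-1.02, offset 5.5), and for the difference between times called *HSP101* at 10 °C (either offset) and *BAG6* at 37 °C (-1.56, adjusted p = 0.016, offset 0.5) and lost *CLPB4* at 37 °C (0.76, adjusted p = 0.101, offset 0.5). For the difference between times at 37 °C, 1 gene was called with no filter, with the groups compared alone or without the 4 ZT6 libraries, and at 10 °C 1 was called with the groups compared alone. The causes were not tested. The offset of 0.5 moved the median LFC of all genes by -0.31 for WT at 37 °C at ZT1 and that of 5.5 by -0.38 for WT at 10 °C at ZT1. Same-numbered replicates were not treated as pairs. Their deviations correlated with r of -0.33 to 0.29 at ZT1 (median 0.018) and -0.40 to 0.30 at ZT6 (median 0.12). The medians for other pairs were 0.002 and -0.03. At ZT1 10 of 23 libraries, and at ZT6 8 of 12, had their best partner under their own number. These values do not settle whether replicates were paired. A replicate block changed no call of the 9 genes (8 called for WT at 37 °C at ZT1). Depth limits *HSA32* and *BAG6* at 22 °C and 10 °C at ZT1, where the reads added to each count lower their LFCs. Where leaving out libraries left a group with 1, that library was assumed to vary like the other groups.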
